A study of Mus musculus with 6 samples.

Results

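The genes described here serve antigen presentation by MHC class II molecules: Cd74, H2-Aa, H2-Ab1, H2-Eb1, H2-DMa, H2-DMb1 and Ciita. These 7 symbols were looked up in the gene table of the study, and 5 of them were found among its 12016 rows; H2-DMb1 and Ciita were not analysed here. The study measured RNA by sequencing in the whole pancreas of 6 male mice, each 3 weeks old, of which 3 were wild type (C57Bl6/N in the labels' protocol, C56Bl6/N in their strain field) and 3 lacked both copies of OCaR1 (OCaR1-/-), with the same strain entry and no treatment in either group. OCaR1 is the product of Tmem63a, a protein of lysosomes and related organelles, a link known from background and not from the labels. How the allele was made, and whether the knockout and wild-type mice were littermates, is not given in the sources used here.

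MHC class II molecules are pairs of an alpha and a beta chain that show peptides from internalised proteins to CD4+ T cells. The chains assemble in the endoplasmic reticulum around the invariant chain, which Cd74 encodes and which blocks the peptide groove; proteases of endosomes and lysosomes then cut the invariant chain down to a short remnant, and the DM molecule, made of an alpha chain from H2-DMa and a beta chain, exchanges this remnant for antigenic peptides. Macrophages, dendritic cells and B cells carry these molecules in most tissues, the pancreas included, while the acinar cells that form the bulk of the organ normally do not. The factor Ciita switches the genes on by docking to proteins bound at shared promoter elements, called the X and Y boxes.

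All levels are in FPKM (fragments per kilobase of transcript, corrected for library size), 1 value per genotype, which the authors computed from the 3 mice of a group. Values of single mice were not analysed here, so no SD and no overlap of groups can be given. Whether a difference exceeded the spread between mice rests on the authors' Cuffdiff test, and a gene is said to be called, or to have risen or fallen, where the q-value in the authors' deposited table was under 0.05. Of 11478 tested genes that table called 866 (7.54%), of which 482 (4.20% of those tested) were higher in the knockout and 384 (3.35%) lower; the median log2 ratio of knockout over wild type was -0.03. The targeted gene Tmem63a stood at 4.91 FPKM in knockout against 18.3 FPKM in wild-type pancreas (q = 0.00152 in the authors' deposited table). The labelled tissue was checked on 10 acinar marker genes, whose levels summed to 173014 FPKM in knockout against 194896 FPKM in wild-type pancreas. Depth is unknown, because FPKM values of a group carry no counts.

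The class II genes were higher in the knockout pancreas. Cd74, the invariant chain gene, was the most abundant of them. It rose from 12.0 to 29.8 FPKM, a 2.49-fold difference. H2-Aa, the alpha chain gene of the I-A molecule, had 14.8 FPKM in knockout against 5.28 FPKM in wild-type pancreas, the largest rise of the 5 genes at 2.81-fold. H2-Eb1, a beta chain gene of the I-E molecule, had 12.4 and 4.60 FPKM in the same order, a rise of 2.70-fold. In C57BL/6 mice, as background, the partner alpha chain gene of I-E lacks a working promoter, so the H2-Eb1 transcript is made without surface I-E.

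H2-Ab1, the beta chain gene of I-A, showed the smallest rise, 2.08-fold, from 4.05 FPKM in wild type to 8.42 FPKM in the knockout. H2-DMa, which encodes the alpha chain of the peptide exchange molecule DM, was the least abundant, at 2.00 FPKM in knockout against 0.847 FPKM in wild-type pancreas (2.36-fold). The authors' deposited table called 5 of the 5 genes higher, beside 4.20% of all tested genes. Its q was 0.00152 for Cd74, H2-Aa, H2-Eb1 and H2-Ab1 and 0.00283 for H2-DMa. The first 4 have the smallest Cuffdiff p of any tested gene, 5e-05. In all, 394 tested genes share that p, so this q does not rank genes among them. Every row of the table exceeds 1 FPKM in at least 1 genotype. H2-DMa passed that limit through its knockout value alone, so a row for it already required a higher knockout level; the other 4 exceeded it in both genotypes. Among tested genes with more than 1 FPKM in wild type, these 4 of 4 were called, beside 3.44% called higher of all such genes. At a q under 0.01 the call covered 5 of 5, beside 2.71% of all tested genes. A minimum of 5 FPKM in either genotype, under which 3.93% of all genes were called higher, kept 4 of the 5, but H2-Eb1 and H2-Ab1 met it through their knockout values alone, so nothing is read from that count.

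**Figure D1:**
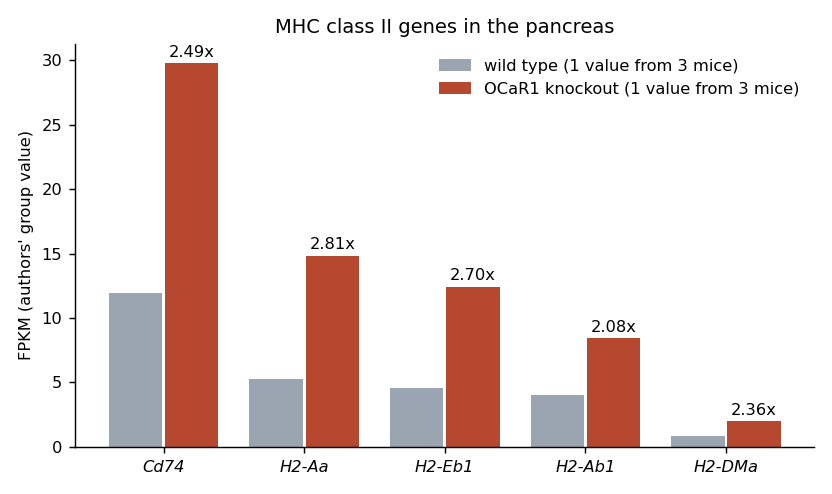
Level of the 5 class II genes (vertical axis, FPKM) in wild type (grey) and OCaR1 knockout (red); each bar is the authors' single value for 3 mice, so no error bar exists, and the number printed over a red bar is the fold of knockout over wild type. The knockout bar is the higher one for each gene, from 2.08-fold for H2-Ab1 to 2.81-fold for H2-Aa, and the order of the genes is the same in both genotypes.

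On the log2 scale the ratios were 1.49 for H2-Aa, 1.43 for H2-Eb1, 1.31 for Cd74, 1.24 for H2-DMa and 1.06 for H2-Ab1, with a median of 1.31 beside -0.03 over all tested genes. Ranked by level, Cd74 came before H2-Aa, H2-Eb1, H2-Ab1 and H2-DMa in both genotypes; without values per mouse it cannot be said which neighbours in this order differ beyond their spread. Summed, the 3 chain genes H2-Aa, H2-Ab1 and H2-Eb1 reached 35.7 FPKM in knockout against 13.9 FPKM in wild-type pancreas. Cd74 stood at 0.834 times that sum in the knockout and 0.859 times in wild type. H2-DMa amounted to 5.59% of the sum in the knockout and 6.08% in wild type. The widest shift was between the I-A chains, where the level of H2-Aa was 1.76 times that of H2-Ab1 in the knockout and 1.30 times in wild type; this shift was not tested.

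The genes also moved up in the order of all genes. Cd74 lay above 75.8% of the tested genes in wild type and above 90.6% in the knockout. H2-Aa moved from above 53.4% to above 80.7%, and H2-Eb1 from above 49.1% to above 77.1%. H2-DMa went from above 2.35% to above 22.0% of them, but it is in the table through its knockout value alone, so nothing is read from this shift. Large rises were not restricted to this pathway: 219 tested genes, or 1.91% of the 11441 with a ratio, had a log2 ratio at least as high as that of H2-Ab1, the lowest of the 5.

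**Figure D2:**
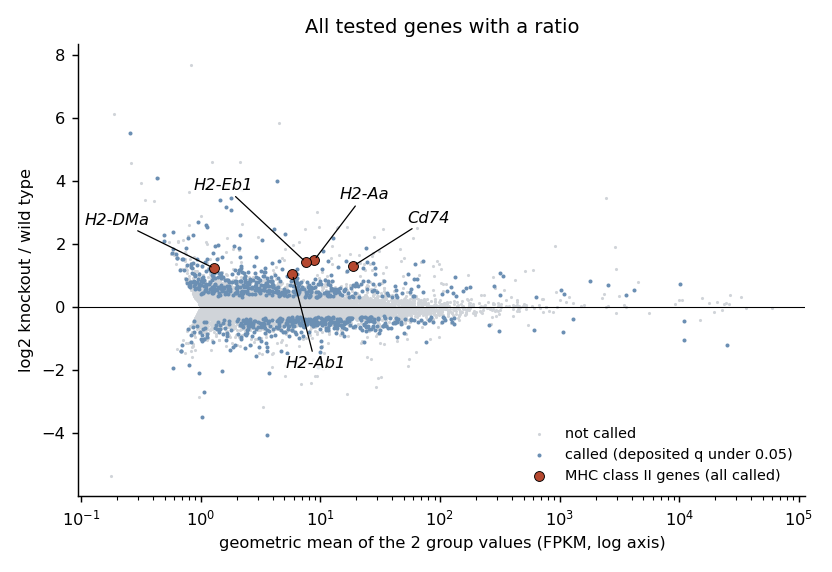
Each point is a tested gene, with the geometric mean of its knockout and wild-type values on the horizontal axis (FPKM, log axis) and the log2 ratio of knockout over wild type on the vertical axis; blue points are called in the authors' deposited table. The class II genes (red) lie between 1.06 and 1.49 on the vertical axis, above most genes of their level.

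Promoters were looked up because class II genes are known for shared promoter boxes. The RefSeq promoter set used here had no entry for Cd74 and H2-Ab1, so their promoters were not examined. H2-DMa had entries, but these were not used because of the distance given below. The promoters of the remaining class II genes, H2-Aa and H2-Eb1, are shown. Both genes lie on chromosome 17 of GRCm38, H2-Aa on the minus strand and H2-Eb1 on the plus strand, and the sequences are those of RefSeq (GRCm38.p6), from 250 bases before the transcript start to 50 bases from it on. H2-Aa is read from chr17:34287774-34288073 (minus strand) and H2-Eb1 from chr17:34305617-34305916 (plus strand). Capitals mark GCAACT, a core of the X box in these promoters, and CTGATTGG, which holds the reverse CCAAT of the Y box.
H2-Aa: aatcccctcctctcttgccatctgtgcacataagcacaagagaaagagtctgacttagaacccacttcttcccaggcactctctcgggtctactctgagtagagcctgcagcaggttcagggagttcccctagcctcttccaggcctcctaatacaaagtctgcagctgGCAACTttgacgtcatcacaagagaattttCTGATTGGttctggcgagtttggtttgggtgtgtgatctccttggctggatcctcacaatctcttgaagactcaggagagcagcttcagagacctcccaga
H2-Eb1: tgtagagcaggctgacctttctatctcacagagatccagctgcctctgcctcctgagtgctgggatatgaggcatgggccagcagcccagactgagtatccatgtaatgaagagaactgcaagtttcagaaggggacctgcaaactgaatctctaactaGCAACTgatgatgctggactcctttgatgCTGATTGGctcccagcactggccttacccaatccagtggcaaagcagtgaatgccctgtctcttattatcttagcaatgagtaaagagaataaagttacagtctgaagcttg

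In H2-Aa the X core began 81 bases and the Y motif 51 bases before the transcript start, with 24 bases between them. In H2-Eb1 they began 91 and 62 bases before it, with 23 bases between them. CTGATTGG was present on either strand in 4.10% of the 32851 promoters of the RefSeq table, and GCAACT in 10.9%. GCAACT followed by CTGATTGG within 60 bases on 1 strand was found in 15 promoters (0.0457%), which included H2-Aa, H2-Eb1 and their neighbour H2-Eb2. GCAACT was chosen after these sequences had been read, so the pair is a description. Of the general X box forms, CCNAGNNAC was in H2-Aa 180 bases before the start and in 17.3% of all promoters, and a longer form of it was in neither promoter and in 1.16% of all. ATTGG, which lies within CTGATTGG, was in both and in 37.4% of all. These patterns were searched on both strands. The table's promoters for H2-DMa start 12350 and 9664 bases away from the start of its interval in the study's table and were not used.

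The 4 genes of chromosome 17 lie within 181 kb of each other, from 34135182 to 34316199 on GRCm38, in the class II region of the major histocompatibility complex. By the study's table, H2-DMa (ENSMUSG00000037649) covers 34135182 to 34139101, H2-Ab1 (ENSMUSG00000073421) 34263209 to 34269418, H2-Aa (ENSMUSG00000036594) 34282744 to 34287827 and H2-Eb1 (ENSMUSG00000060586) 34305877 to 34316199. All of them are protein-coding. Between them lie 5 other tested genes, the peptide transporter genes Tap1 and Tap2, the immunoproteasome genes Psmb8 and Psmb9, and Gm15821. The authors' Cuffdiff table called 0 of these 5, with 0 at an unadjusted p under 0.05, beside 7.54% of all tested genes called. With 5 genes, 0 calls lie near that share. Tap1 had 2.96 FPKM in knockout against 2.80 FPKM in wild-type pancreas, and Psmb9 had 2.36 and 2.30 FPKM. Within 500 kb of the span on either side there were 40 other tested genes, the 5 included. Cuffdiff called 0 of the 40, beside 7.54% of all tested genes. Of the 40, 8 had an unadjusted p under 0.05 in Cuffdiff, and the median log2 ratio was 0.03. For counts at an unadjusted p, here and below, the share of all tested genes is not given, so nothing is read from them. Several of the 40 genes, Tap1, Tap2, Psmb8 and Psmb9 included, share their interval in the table with another gene, so that reads could be divided between the genes of an interval.

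**Figure D3:**
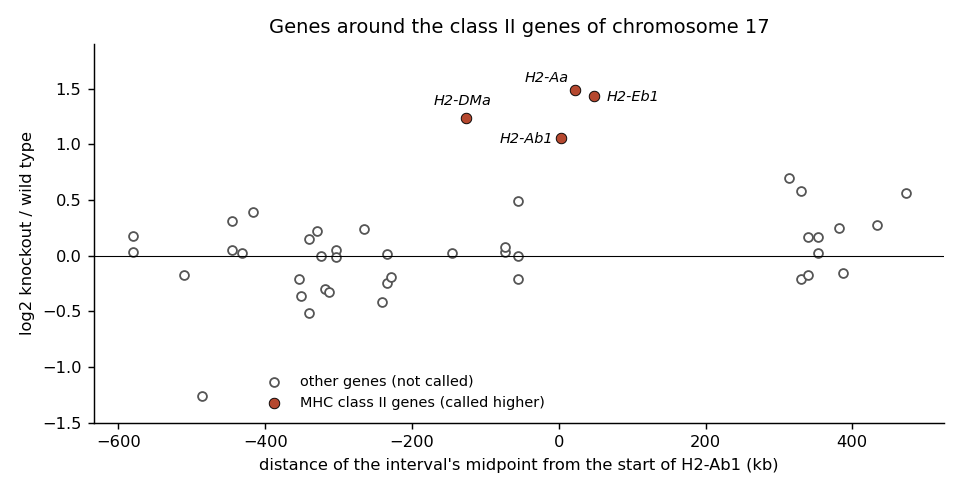
Tested genes within 500 kb of the class II genes of chromosome 17, by the distance of the interval's midpoint from the start of H2-Ab1 (horizontal axis, kb) and the log2 ratio of knockout over wild type (vertical axis). H2-DMa, H2-Ab1, H2-Aa and H2-Eb1 (red, called) lie between 1.06 and 1.49, and the 40 other genes (open, none called) between -1.26 and 0.70.

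Cd74 (ENSMUSG00000024610, protein-coding) lies apart, on chromosome 18 of GRCm38, from 60803848 to 60812646. It shares this interval with the microRNA gene Mir5107, which was not tested and had 6.01 FPKM in knockout against 6.22 FPKM in wild-type pancreas. Confusion with related genes was checked on the GENCODE M21 transcripts of the same build by cutting them into windows of 50 bases, the read length of the study. Of the windows of Cd74, H2-Ab1 and H2-Eb1, 0% occurred in transcripts of another gene. For H2-Aa the share was 0.514%. For H2-DMa it was 8.43%, and each of these windows was shared with the neighbouring gene Brd2, whose level was 23.2 FPKM in knockout against 22.8 FPKM in wild-type pancreas. GENCODE M21 gives H2-DMa and H2-Ab1 earlier starts than the study's table does. Its H2-DMa starts at 34119541, inside the interval of Brd2, which ends at 34122634 in the study's table. In that table H2-DMa starts only at 34135182, past the end of Brd2. Where the shared windows lie was not examined.

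Of the other genes of the class II pathway, those that process antigen in endosomes rose in part. The authors' deposited table called 3 of 12 tested genes, all 3 as higher, beside 4.20% of all tested genes called higher. The list median was 0.20 on the log2 scale. Ctss, the cathepsin that trims the invariant chain in macrophages, dendritic cells and B cells, rose 2.35-fold, from 3.13 to 7.34 FPKM. Lgmn, an asparagine-specific endopeptidase of lysosomes, rose 1.52-fold, from 5.14 to 7.84 FPKM. Ifi30, a thiol reductase that unfolds antigens, rose 1.46-fold, from 23.3 to 34.1 FPKM. The abundant cathepsin genes were not called: Ctsl had 183 FPKM in knockout against 152 FPKM in wild-type pancreas (q = 0.0994 in the authors' deposited table), and Ctsd 109 and 124 FPKM (q = 0.365). The DM and DO genes H2-DMb2, H2-Oa and H2-Ob, the paralog H2-Eb2 and the ubiquitin ligase gene March1 were not analysed here.

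The factors that bind the X and Y boxes were not called. Of 10 tested genes for RFX, NF-Y and CREB proteins and their coactivators, the authors' Cuffdiff table called 0, beside 7.54% of all tested genes. With so few genes, 0 calls lie near that share, so nothing is read from the count. Of the 10, 1 had an unadjusted p under 0.05 in Cuffdiff, and the median log2 ratio was -0.06. Rfxap, a subunit of the RFX complex, had 12.8 FPKM in knockout against 14.7 FPKM in wild-type pancreas (q = 0.828 in the authors' deposited table). Nfyb, a subunit of NF-Y, had 7.37 and 8.55 FPKM (q = 0.746 in the same table). These values leave the level of Ciita itself unknown.

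Class I molecules show peptides of cytosolic proteins to CD8+ T cells. Of their 19 tested presentation genes, the authors' deposited table called 3, all as higher, beside 4.20% of all tested genes called higher. The median log2 ratio of the 19 was 0.16. B2m, the light chain of class I molecules, rose 1.87-fold, from 44.5 to 83.2 FPKM. The heavy chain genes H2-Q6 (2.32 FPKM in knockout against 0.695 FPKM in wild-type pancreas) and H2-Q7 (1.48 and 0.583 FPKM) were also called, but both are in the table through their knockout values alone. Of their 50-base windows, 35.0% for H2-Q6 and 26.5% for H2-Q7 occur in transcripts of other genes, class I paralogs among them, so their values are uncertain. The peptide loading genes Calr (186 and 180 FPKM) and Pdia3 (93.1 and 100 FPKM) were not called.

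Interferon gamma, a cytokine of T cells and natural killer cells, is the classical inducer of Ciita. Across 12 tested genes of its signalling pathway the median log2 ratio was 0.20. Of these, the authors' deposited table called 2, both as higher, beside 4.20% of all tested genes called higher. They were the interferon-induced GTPase genes Iigp1 (1.39 FPKM in knockout against 0.792 FPKM in wild-type pancreas) and Gbp2 (1.80 and 1.16 FPKM, q = 0.0229 in that table). Iigp1 passed the limit of 1 FPKM through the knockout alone. Ifngr1, a receptor subunit, had 9.88 and 6.26 FPKM and missed the threshold (q = 0.0517 in the authors' deposited table), and the kinase gene Jak1, which shares its interval with another gene, had 15.8 and 17.9 FPKM. Ifng and the 11 listed genes of costimulation and T cell attraction, among them Cd80, Cd86 and Cd40, were not analysed here.

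Markers of cells that carry class II molecules moved with these genes in part. In bulk tissue, more cells of a type and more RNA per cell cannot be told apart. Of 16 tested macrophage and monocyte markers (19 listed), the authors' deposited table called 13, all as higher, beside 4.20% of all tested genes called higher. Their median log2 ratio was 0.79. Of the 16, 5 are in the table through the knockout value alone. Of the other 11 it called 9, beside 3.44% called higher of all tested genes with wild type above 1 FPKM. The summed level of the 16 was 129 FPKM in knockout against 74.0 FPKM in wild-type pancreas. The lysozyme gene Lyz2 rose from 18.7 to 44.4 FPKM and the complement gene C1qb from 8.73 to 15.5 FPKM, while C1qa had 27.3 FPKM in knockout against 22.9 FPKM in wild-type pancreas without a call. Of 11 tested markers of leukocytes in general (14 listed), the same table called 5, all as higher, beside the same 4.20% of all tested genes. Of these 5, 2 are in the table through the knockout alone. The summed level of the 11 was 61.3 FPKM in knockout against 45.5 FPKM in wild-type pancreas. Laptm5 had 8.06 and 4.87 FPKM, Lsp1 8.33 and 9.26 FPKM and Lcp1 7.59 and 7.54 FPKM, none of these 3 called.

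Few of the listed dendritic cell and lymphocyte markers were tested. Of 4 tested dendritic cell markers (15 listed) the authors' Cuffdiff table called 0, beside 7.54% of all tested genes. Of the 4, 1 had an unadjusted p under 0.05 in Cuffdiff. Their summed level was 32.0 FPKM in knockout against 28.8 FPKM in wild-type pancreas. Most of it came from Bst2 (22.1 and 20.6 FPKM), which many cell types express. Fscn1 had 5.66 and 4.63 FPKM and Clec10a 2.60 and 2.37 FPKM. The defining dendritic cell genes Itgax, Flt3, Xcr1 and Clec9a were not analysed here. Of 5 tested B cell and plasma cell markers (14 listed), 1 was called in the authors' deposited table: Igj, the joining chain of secreted antibodies, rose from 1.66 to 5.03 FPKM. The summed level of this list, 257 FPKM in knockout against 313 FPKM in wild-type pancreas, came mostly from Xbp1 (246 and 304 FPKM), which acinar cells express strongly. Sdc1 had 4.03 and 5.50 FPKM. Cd79b, a B cell receptor subunit gene (1.25 and 0.859 FPKM), and Cd22, a B cell coreceptor gene (1.19 and 0.864 FPKM), were not called and are in the table through the knockout value alone; the list median was 0.47 on the log2 scale. The B cell genes Ms4a1, Cd79a and Pax5 were not analysed here. The antibody constant region genes Igkc and Ighm were not on this list. Both were called higher in the authors' deposited table, 2.59- and 2.38-fold, and are described below.

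Of the 15 T cell and natural killer cell markers, Tcf7 was the 1 tested gene (also in a shared interval), at 0.821 FPKM in knockout against 1.61 FPKM in wild-type pancreas. It is in the table through its wild-type value alone, so a row for it already required a lower knockout level. Cuffdiff called 0, with 0 at an unadjusted p under 0.05. Lymph node stroma, which a dissected pancreas can carry, was represented by 3 of 8 listed genes. The authors' deposited table called 2 of them higher, beside 4.20% of all tested genes. The B cell attractant Cxcl13 rose from 3.72 to 7.34 FPKM and the lymphatic vessel gene Lyve1 from 2.95 to 5.27 FPKM. Glycam1 had 0.0281 FPKM in knockout against 1.14 FPKM in wild-type pancreas without a call. It too is in the table through its wild-type value alone, so nothing is read from this difference. Ccl21a, Ccl19 and Madcam1 were not analysed here.

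**Figure D4:**
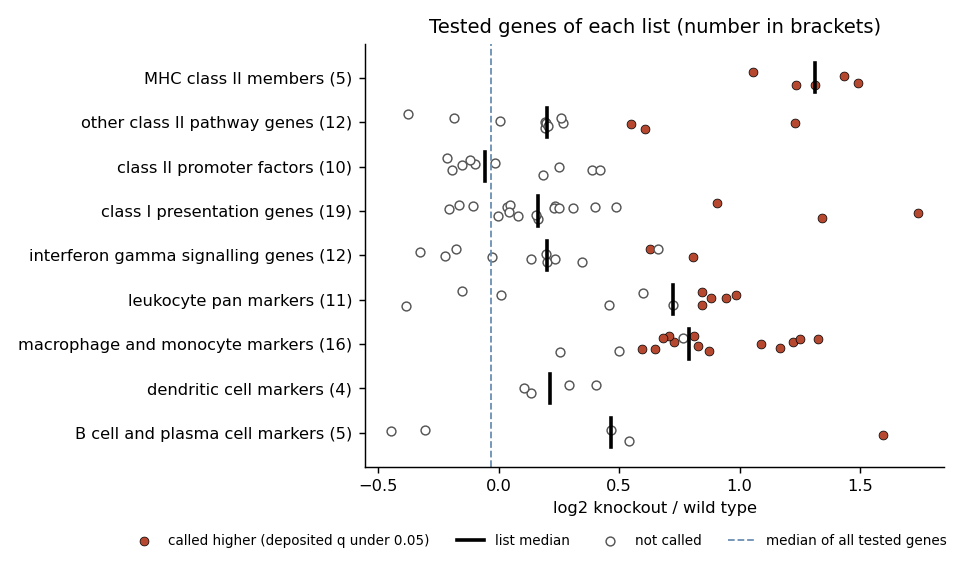
Log2 ratio of knockout over wild type (horizontal axis) for each tested gene of 9 lists (rows, number of genes in brackets); red points are called higher in the authors' deposited table, open points are not called, black bars are list medians and the dashed line is the median of all tested genes (-0.03). The class II genes span 1.06 to 1.49, the macrophage and monocyte markers 0.25 to 1.32, and the promoter factors -0.21 to 0.42.

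Divided by the summed levels of these markers, the summed class II genes were higher in the knockout. The summed level of the 5 genes was 67.4 FPKM in knockout against 26.7 FPKM in wild-type pancreas, 2.52-fold. Divided by the summed macrophage and monocyte markers it was 0.522 in the knockout and 0.362 in wild type, 1.44-fold. Divided by the summed leukocyte markers it was 1.10 in the knockout and 0.588 in wild type, 1.87-fold. Such a sum is weighted to its most abundant genes. The log2 ratios of single macrophage and monocyte markers ran from 0.25 to 1.32, a range that overlaps the 1.06 to 1.49 of the class II genes. These ratios carry no test, and the part of cell composition in the class II result was not tested.

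Marker genes of other cell types of the organ also differed between the groups. By the authors' deposited q-values, 12 of 13 islet markers and 6 of 8 fat cell markers were called higher. So were 5 of 11 endothelial markers and 6 of 10 fibroblast and stellate cell markers, and none on these lists was called lower. Of all tested genes, 4.20% were called higher. Of the 6 fat cell markers called, 1 is in the table through its knockout value alone. The list medians, in the order named, were 0.65, 1.19, 0.40 and 0.42 on the log2 scale. That of the 10 acinar markers was -0.06, with 3 called lower, beside 3.35% of all tested genes called lower. The insulin gene Ins2, for example, had 3231 FPKM in knockout against 1998 FPKM in wild-type pancreas, the fatty acid carrier gene Fabp4 88.0 and 46.7 FPKM, the endothelial adhesion gene Pecam1 16.1 and 11.0 FPKM and the matrix gene Dcn 55.8 and 40.8 FPKM, all 4 called. Not called were the more abundant endothelial markers Egfl7 (27.5 and 20.8 FPKM) and Plvap (24.8 and 20.1 FPKM). The most abundant fibroblast marker, Col3a1 (270 and 205 FPKM), and the fat cell marker Lpl (19.1 and 15.3 FPKM) were not called either. Among acinar genes, Prss2 had 59529 and 60473 FPKM without a call, and Cela1 fell from 37728 to 16591 FPKM.

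The genes most like the class II genes in their ratio were sought among the 315 other called genes with at least 10 FPKM in either genotype, by the distance of their log2 ratio from the median of 1.31; with 1 value in each of 2 genotypes, this likeness rests on a single ratio. The nearest 5 were the predicted gene Gm10334 (2.45-fold, from 8.95 to 21.9 FPKM), Igkc, the constant region of kappa antibody light chains (2.59-fold, from 38.1 to 98.7 FPKM), Lyz2 (2.38-fold), Ighm, the constant region of IgM heavy chains (2.38-fold, from 14.7 to 34.9 FPKM), and the carbonic anhydrase gene Car3 of fat and muscle (2.63-fold). Lyz2 belongs to the macrophage markers and Car3 to the fat cell markers described above. Igkc and Ighm are antibody genes, like Igj of the B cell and plasma cell list, but were not on that list.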

How the data were processed

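RNA of the 6 pancreas samples was sequenced as single reads of 50 bases after poly(A) selection, per the labels' protocols. The submitters' processing notes name the build GRCm38 and the tools Cuffdiff, Cufflinks 2.2.1 and STAR 2.5.1b; not given in the sources used here are annotation release, use of strand and Cuffdiff settings. The deposited table holds 1 FPKM value per genotype that the authors combined from 3 mice. Its p-value and q-value columns are the authors' own test. Columns of single samples numbered 0, and depth is unknown. The deposited fold change column holds spreadsheet errors and was not used.

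Log2 ratios of knockout over wild type were recomputed from the FPKM values with no pseudocount (Python 3.11.15, pandas 2.3.3); values under 0.01 FPKM got no ratio. Genes were called at a deposited q under 0.05, over the 11478 tested rows; 538 rows marked as not tested were left out. No test was added, since no values per mouse were available, and p-values rest on the spread between the mice the labels number. Starts of intervals were shifted by 1 base. Scripts were checked on simulated data. Alternatives covered pseudocounts, filters, thresholds and scalings.

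The members and the 17 gene lists were chosen with earlier results of these data known. Named genes are the members; of the pathway lists up to 6 called genes and the 2 most abundant uncalled; of each marker list the 3 most abundant in wild type, of which not all are printed; and the 5 called genes nearest in ratio. Brd2, Tap1, Psmb9, Cd79b, Cd22 and the genes named as not analysed were added after values were seen.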

Additional observations from a re-analysis of the deposited data

How the results depend on the processing

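The 5 class II genes were called higher under a q threshold of 0.01. Recomputing the Benjamini-Hochberg q from the deposited p-values called the same number of genes higher, 482, so it is no separate check of the calls. A wild-type value above 1 FPKM, a filter chosen after seeing the data, left 4 of the 5, all called. At least 5 FPKM in either genotype also left 4, but H2-Eb1 and H2-Ab1 met it through the knockout alone, so it is no check of the call. The median log2 ratio of 1.31 became 1.28 with a pseudocount of 0.5, 1.25 with a pseudocount of 1, 1.37 with at least 5 FPKM, 1.37 with wild type above 1 FPKM, 1.18 when scaled to the summed FPKM without acinar markers, 1.35 when centred on all tested genes, 0.88 when divided by the leukocyte markers and 0.51 when divided by the macrophage and monocyte markers. Over the planned settings the ratio of a single class II gene lay between 0.25 (H2-Ab1 over macrophage and monocyte markers) and 1.52 (H2-Aa, centred). A pseudocount or the 5 FPKM filter cannot turn the sign of a gene's ratio. Only the scalings could, and the ratios stayed positive under each of them. With at least 5 FPKM the genes called higher fell to 1 for class I presentation, 0 for interferon gamma signalling (3 of its tested genes had an unadjusted p under 0.05 before that filter), 2 for leukocyte markers and 3 for macrophage and monocyte markers, and the B cell and plasma cell median turned from 0.47 to -0.31. With wild type above 1 FPKM they were 1, 1 and 3 for class I, interferon gamma and leukocyte markers. The other 53 counts of calls over lists stayed within 1.5 times. Many of these were 0 before any filter, and a filter can only remove calls, so they could not change. No paired analysis was possible because the table holds 1 value per genotype; for the same reason no mouse could be left out, and neither of these fits was run. Depth is unknown, so its effect on these values was not measured.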

Other observations

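Genes next to Cd74 on chromosome 18 were looked at after the values were known. The median log2 ratio of 12 other tested genes within 500 kb of Cd74 was 0.05. Of these 12, the authors' deposited table called 3 higher, beside 4.20% of all tested genes, and 0 lower. They were Iigp1, Csf1r, the macrophage growth factor receptor gene (4.66 FPKM in knockout against 2.81 FPKM in wild-type pancreas, where the interval also holds another gene), and Pdgfrb, a receptor gene of fibroblasts and pericytes (2.31 and 1.70 FPKM). The ribosomal protein gene Rps14, which lies nearby, had 435 and 427 FPKM without a call.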
